A study of Mus musculus with 4 samples.

Results

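The mitochondrial ribosomal protein genes, named Mrpl for the large and Mrps for the small subunit, were followed in sorted mouse cells of the fetal liver and of adult bone marrow. They were chosen by symbol alone: every gene label of the deposited comparison made of Mrpl or Mrps, a number and at most 1 further letter was a member, which gave 77 of 33465 labelled genes. Of these, 62 could be tied to a measured feature, and 14 of the 62 were higher in fetal liver and none lower, taking the adjusted p of the authors' deposited table. Among features with a mean of at least 10, 8.86% were higher, and of all tested features 4.12% were higher and only 0.129% lower. The median member stood at a log2 ratio of fetal liver to bone marrow mean of 1.60, beside 0.11 for features with a mean of at least 10. Labels had to be placed again beside their values, and the direction of the difference was used in doing so.

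All samples were primary cells of C57BL/6 mice, sorted by flow cytometry, with 2 libraries from fetal liver and 2 from adult bone marrow. No transgene, deletion or treatment is named in the labels, and the ages of the animals, the surface markers of the sort, and the number of animals behind each group remain unstated in the sources. The p-values therefore rest on the spread between 2 libraries per group, and that spread may be technical. The series is about the surroundings of blood stem cells near portal vessels of the fetal liver, where these cells expand before birth, and the comparison asks how cells from the 2 organs differ in expressed genes.

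Mitochondrial ribosomes translate the few messages of the mitochondrial genome, which encode core subunits of the respiratory chain and the ATP synthase. Their ribosomal RNAs come from the mitochondrial genome, whereas all of their proteins are made from nuclear genes in the cytosol and imported. Many of these proteins descend from bacterial ribosomal proteins, and others are found only in mitochondrial ribosomes, where they surround a shortened ribosomal RNA. The factors NRF1 and GABPA, an ETS family protein, are known to act at promoters of nuclear genes for mitochondrial proteins.

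The promoter windows of the members were read first, because many members stood higher together. RefSeq (GRCm38.p6) held windows from 250 bases before to 50 bases after the start for 67 of the 76 members with reads. Below are the 100 bases before the start of 6 of them, 5′ to 3′ on the strand of the gene, with matches to the 4 searched motifs in capitals. Mrpl42, Mrpl20, Mrpl36 and Mrpl52 are shown because their folds were among the largest called, Mrpl22 because its window holds both an NRF1 and an ETS core, and Mrps26 because its fetal liver mean was the lower one.
Mrpl42, chr10:95501950-95502049, minus strand: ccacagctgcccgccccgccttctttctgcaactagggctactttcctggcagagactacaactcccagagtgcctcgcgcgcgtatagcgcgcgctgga
Mrpl20, chr4:155802778-155802877, plus strand: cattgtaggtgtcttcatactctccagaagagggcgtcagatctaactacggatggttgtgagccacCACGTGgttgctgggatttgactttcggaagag
Mrpl36, chr13:73330909-73331008, plus strand: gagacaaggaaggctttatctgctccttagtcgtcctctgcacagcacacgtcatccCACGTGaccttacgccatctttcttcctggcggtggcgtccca
Mrpl52, chr14:54426809-54426908, plus strand: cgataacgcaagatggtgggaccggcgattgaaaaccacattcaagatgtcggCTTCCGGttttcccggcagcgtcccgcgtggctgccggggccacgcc
Mrpl22, chr11:58171564-58171663, plus strand: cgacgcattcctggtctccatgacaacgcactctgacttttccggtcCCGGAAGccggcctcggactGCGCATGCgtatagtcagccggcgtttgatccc
Mrps26, chr2:130563657-130563756, plus strand: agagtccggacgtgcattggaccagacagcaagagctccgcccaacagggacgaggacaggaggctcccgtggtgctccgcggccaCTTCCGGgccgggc

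The ETS core CCGGAAG, searched on both strands, lay in the windows of 24 of 67 members (35.8%), of 12.9% of 17491 protein-coding genes and of 9.93% of all 27025 genes with a window. The NRF1 core GCATGCGC lay in 8 members (11.9%), against 3.93% of protein-coding and 3.05% of all genes. The YY1 core GATGGCGG lay in 5 members (7.46%), against 2.62% and 1.97%, and the E-box CACGTG in 5 members (7.46%), against 8.91% and 8.09%. These counts describe letters and are not binding sites. The ETS core lay in 6 of the 18 members called higher that have a window (33.3%) and in 18 of the other 49 (36.7%). The NRF1 core lay in none of the 18 and in 8 of the 49, and the E-box in 3 of the 18 (Mrpl20, Mrpl36 and Mrps18c) and 2 of the 49. No difference between these shares was tested. CpG and GC content of the promoter windows were among the properties used to place the labels, so the split by call is not independent of the letters.

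Values are given as the authors' group means of normalized reads and, for single libraries, as normalized reads recovered from those means. The libraries of a group are called deeper and shallower, since nothing in the deposited values links them to a replicate number, and pairs of library values follow that order. The 4 libraries held 858720 and 223361 recovered reads in bone marrow and 2590921 and 884204 in fetal liver, so that 1 read was worth 0.676 and 2.86 normalized reads in bone marrow and 0.379 and 1.19 in fetal liver. Gene labels had slipped against their values in the deposited table and were placed again, and library values and levels are printed only for a label tied to 1 feature at a posterior probability of at least 0.95. Of the 15 members without such a value, Mrpl53 lay among the features at 0 in both groups, and 14 labels could belong to more than 1 feature. These 14 enter the counts of calls over all 76 members where every candidate feature has the same call, and candidate folds are named as such. In bulk samples, fewer cells of a type and less RNA per cell cannot be told apart.

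In the 62 placed members, the authors' means ran from 3.38 to 86.2 normalized reads in bone marrow (median 16.01) and from 14.2 to 157 in fetal liver (median 51.1) by the authors' deposited table. The fetal liver mean was the higher one in 59 members and the lower one in 3. Their median log2 ratio of 1.60 stood beside -0.34 for all 35605 tested features and 0.11 for the 16526 with a mean of at least 10, and relative to the latter it was 1.48. None of the 62 had a mean under 10. The direction of the difference was among the properties used to place the labels, so these counts and ratios are not independent of it. For Mrpl1, Mrpl15, Mrpl49 and Mrps31 a less likely candidate feature had the lower mean in fetal liver. With labels left where deposited, the median log2 ratio was 0.66. The recovered values of all 62 summed to 1159 and 1490 normalized reads in the bone marrow libraries and to 3576 and 3610 in the fetal liver libraries. In 51 of the 62 (82.3%) both fetal liver libraries exceeded both bone marrow libraries, as they did in 37.4% of 16502 features whose mean reached 10. The bone marrow libraries differed among themselves: the shallower stood above the deeper in 44 of 62 members, and the median log2 difference of shallower to deeper was 0.35 over the members and 0.08 over the 16502 features. In fetal liver the shallower stood above the deeper in 31 of 62.

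Of the 62, 14 (22.6%) had an authors' adjusted p under 0.05 and were called higher in fetal liver. By the authors' deposited table, 4.12% of all tested features and 8.86% of those with a mean of at least 10 were called higher, and 0.129% of all tested features lower. Among the 14 labels not tied to 1 feature, 5 (Mrps17, Mrpl30, Mrps21, Mrps16 and Mrpl28) had only candidate features that were called higher, which makes 19 of 76 members (25.0%), and Mrps2 was open, with a higher and a lower candidate. At an unadjusted p under 0.05, 40 of 76 members were higher and none lower, against 8.69% of all tested features higher. With limma on the recovered libraries and Benjamini-Hochberg adjustment, 40 of 76 were higher and none lower, against 19.2% of 16502 features higher and 2.87% lower.

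**Figure D1:**
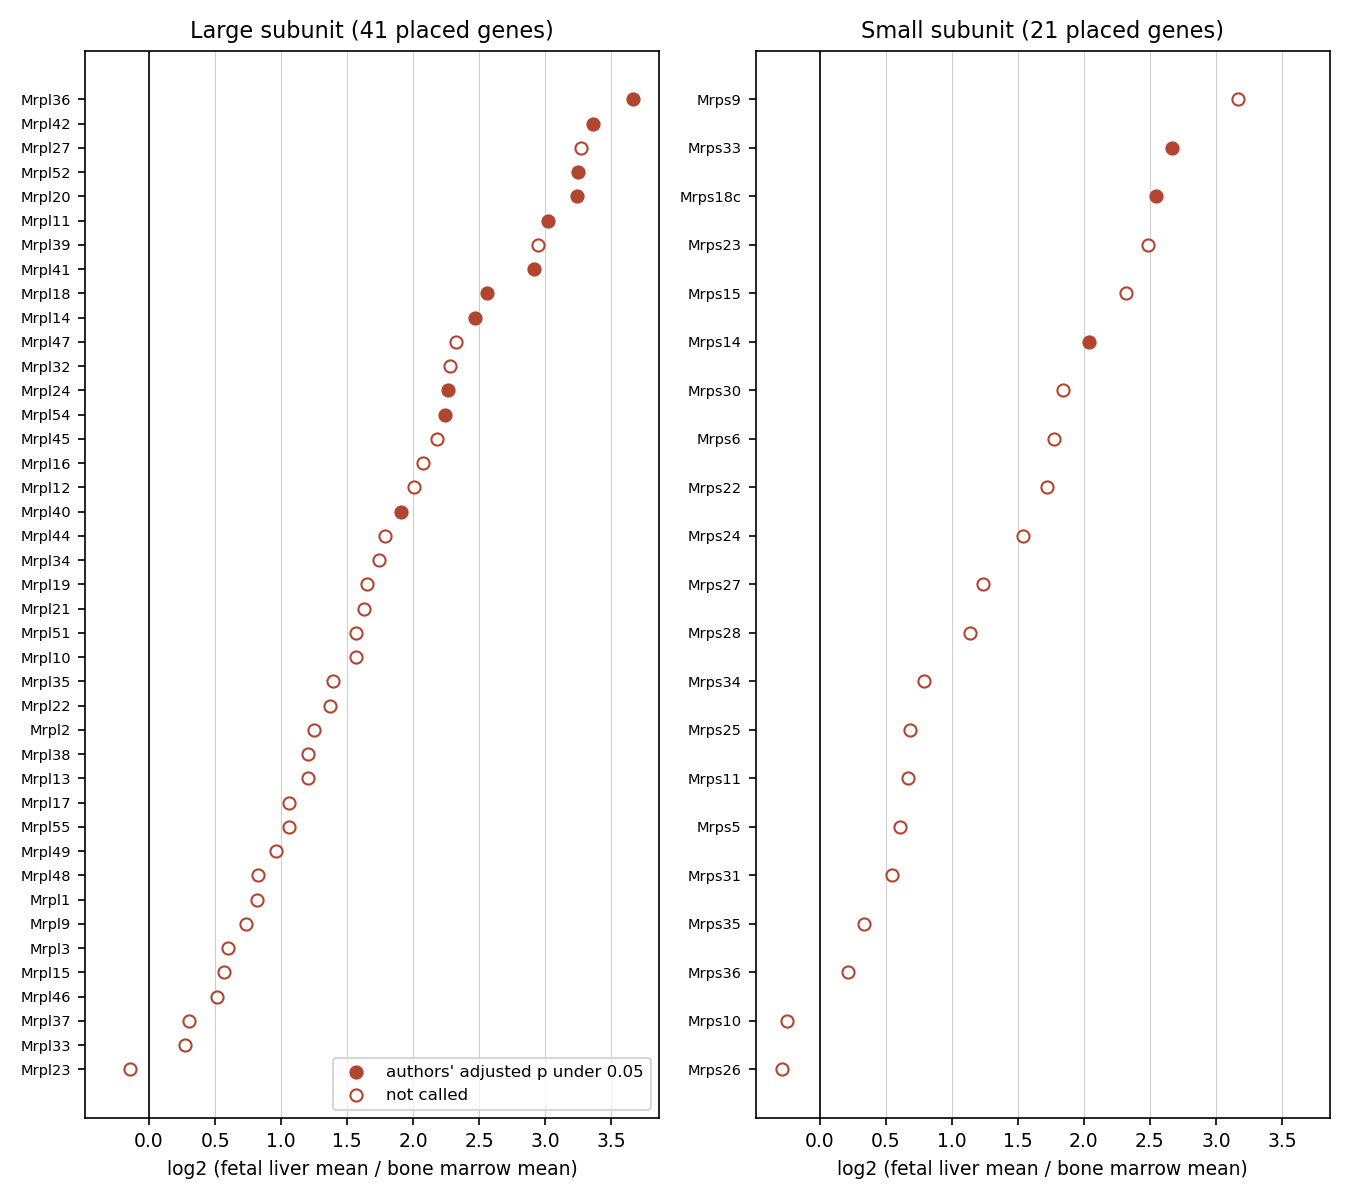
Log2 ratio of the fetal liver to the bone marrow mean for each placed member, sorted by the ratio. The panels follow the symbol, with Mrpl (large subunit, 41 genes) on the left and Mrps (small subunit, 21 genes) on the right. Filled points were called higher by the authors' adjusted p. All but 3 points (Mrpl23, Mrps10 and Mrps26) lie to the right of 0, and called and uncalled members mix along the upper part of the range.

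Of the 41 placed large subunit members, 11 were called higher, with a median log2 ratio of 1.65 over all 41. Mrpl42, found only in mitochondrial ribosomes, had the lowest p of the placed members. Its bone marrow libraries held 13.5 and 17.2 normalized reads and its fetal liver libraries 178 and 137. Both fetal liver libraries stood far above both bone marrow libraries, and the authors' mean rose 10.3-fold from 15.3 to 157 by the authors' deposited table at adjusted p = 1.27e-05. The limma log2 fold change was 3.27 ± 0.40 (SE, 2 libraries per group).

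Mrpl20, whose bacterial counterpart binds the large ribosomal RNA early in assembly, held 9.46 and 14.3 normalized reads in bone marrow and 123 and 101 in fetal liver. The groups lay apart, and the mean rose 9.44-fold from 11.9 to 112 by the authors' deposited table at adjusted p = 0.000109. Limma put its log2 fold change at 3.15 ± 0.43.

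Mrpl36, a small protein with a bacterial counterpart, had the largest fold and, among the called placed members, the lowest bone marrow mean. It held 2.03 and 8.58 normalized reads in bone marrow, which were 3 reads in each library, and 76.2 and 58.3 in fetal liver. The mean rose 12.7-fold from 5.30 to 67.2 by the authors' deposited table at adjusted p = 0.000495, and the fold became 7.84 on leaving out the deeper bone marrow library and 33.2 on leaving out the shallower.

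Mrpl18 belongs to a family that binds 5S ribosomal RNA in bacteria. It held 14.9 and 31.5 normalized reads in bone marrow and 124 and 149 in fetal liver, and its mean rose 5.88-fold by the authors' deposited table at adjusted p = 0.000522. Here too all fetal liver values lay above all bone marrow values, with a limma log2 fold change of 2.59 ± 0.43. Without the shallower bone marrow library the fold was 9.17.

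Mrpl52, found only in mitochondrial ribosomes, held 9.46 and 2.86 normalized reads in bone marrow, the second being 1 read, and 51.5 and 65.4 in fetal liver. The mean rose 9.49-fold by the authors' deposited table at adjusted p = 0.0287, and the fold became 20.4 on leaving out the deeper bone marrow library and 6.18 on leaving out the shallower. Mrpl41, another protein without a bacterial counterpart, held 7.43 and 5.72 normalized reads in bone marrow and 63.7 and 35.7 in fetal liver. Its mean rose 7.55-fold by the authors' deposited table at adjusted p = 0.0287, although its fetal liver libraries differed by more than its bone marrow libraries.

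Mrpl10, Mrpl11 and Mrpl12 form the stalk of the large subunit, where translation factors that split GTP dock. Mrpl11 held 6.08 and 5.72 normalized reads in bone marrow and 47.0 and 48.8 in fetal liver, so that the libraries of each group nearly coincided. Its mean rose 8.11-fold from 5.90 to 47.9 by the authors' deposited table at adjusted p = 0.0300. Mrpl12, the factor-binding protein of the stalk, held 12.8 and 14.3 in bone marrow and 65.2 and 44.0 in fetal liver. The authors' deposited table gives it 4.02-fold at adjusted p = 0.121, so it was not called. With limma and Benjamini-Hochberg adjustment its log2 fold change was 1.91 ± 0.47 (adjusted p = 0.00779). Mrpl10, the base of the stalk, held 6.08 and 17.2 in bone marrow and 49.6 and 19.0 in fetal liver. Its libraries spread widely within each group, and it was not called, with 2.96-fold by the authors' deposited table at adjusted p = 0.524. The fold was 1.64 without the deeper fetal liver library and 5.65 when the shallower bone marrow library was dropped.

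The last called large subunit members had smaller folds. Mrpl14, whose family lies at the contact between the subunits, rose 5.53-fold in the authors' deposited table, and the fold became 3.81 on leaving out the deeper bone marrow library and 10.1 on leaving out the shallower. Mrpl54, found only in mitochondrial ribosomes, rose 4.73-fold by the authors' deposited table at adjusted p = 0.0431. Its libraries held 10.8 and 14.3 normalized reads in bone marrow and 73.5 and 45.2 in fetal liver, and these groups did not overlap. With limma, Mrpl54 and Mrpl41 were no longer called without the deeper fetal liver library, at log2 fold changes of 1.78 and 2.28. Mrpl40, also particular to mitochondria, held 16.2 and 25.7 normalized reads in bone marrow and 86.0 and 71.3 in fetal liver. Every fetal liver value was above every bone marrow value, and the mean rose 3.75-fold, the smallest called fold, from 20.97 to 78.7 by the authors' deposited table at adjusted p = 0.0460. Mrpl24, whose bacterial counterpart starts large subunit assembly, was the last member inside the threshold, with 4.79-fold by the authors' deposited table at adjusted p = 0.0488. Its fetal liver libraries held 61.8 and 91.6 normalized reads and its bone marrow libraries 14.9 and 17.2.

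Of the 21 placed small subunit members 3 were called higher, and the median log2 ratio over all 21 was 1.23. Subunits were read from the symbol alone throughout, which is only a rough guide. The small subunit counts and median thus include Mrps36, described below as not a ribosomal protein. Counting also members not tied to 1 feature, 6 of 29 small subunit and 13 of 47 large subunit members were called higher. Placement was uneven, with 8 of 16 small subunit members numbered up to Mrps21 placed and 13 of 13 with higher numbers. The medians of these placed ones were 1.91 and 1.14, and no difference between the subunits was tested. Mrps33, found only in mitochondrial ribosomes, held 6.76 and 8.58 normalized reads in bone marrow and 58.4 and 39.2 in fetal liver. The groups did not overlap and the mean rose 6.36-fold by the authors' deposited table at adjusted p = 0.0323. Mrps18c is 1 of 3 related genes that share a bacterial ancestor. It held 6.76 and 14.3 normalized reads in bone marrow and 58.7 and 64.2 in fetal liver, rising 5.84-fold by the authors' deposited table at adjusted p = 0.0130, and 9.10-fold without the shallower bone marrow library. Its relatives Mrps18a and Mrps18b were not tied to 1 feature, and none of their candidate features was called. The candidates of Mrps18b all stood at 1.45-fold in the authors' deposited table.

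Mrps14, a protein of the head of the small subunit, held 18.2 and 42.9 normalized reads in bone marrow and 114 and 137 in fetal liver. Its mean rose 4.11-fold from 30.6 to 126 by the authors' deposited table at adjusted p = 0.0136, and the fold became 2.93 on leaving out the deeper bone marrow library and 6.88 on leaving out the shallower. Of the 14 called members, 6 (Mrpl36, Mrpl18, Mrpl52, Mrpl14, Mrps18c and Mrps14) had a fold that moved by over 1.5 times when 1 library was left out. None of the 14 had overlapping groups, and the lowest fold without any 1 library was 2.93. Fetal liver libraries both exceeded both bone marrow libraries in 37.4% of 16502 features whose mean reached 10. The 14 were selected by p from these same libraries, so their separation and remaining folds describe them and are no separate evidence.

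**Figure D2:**
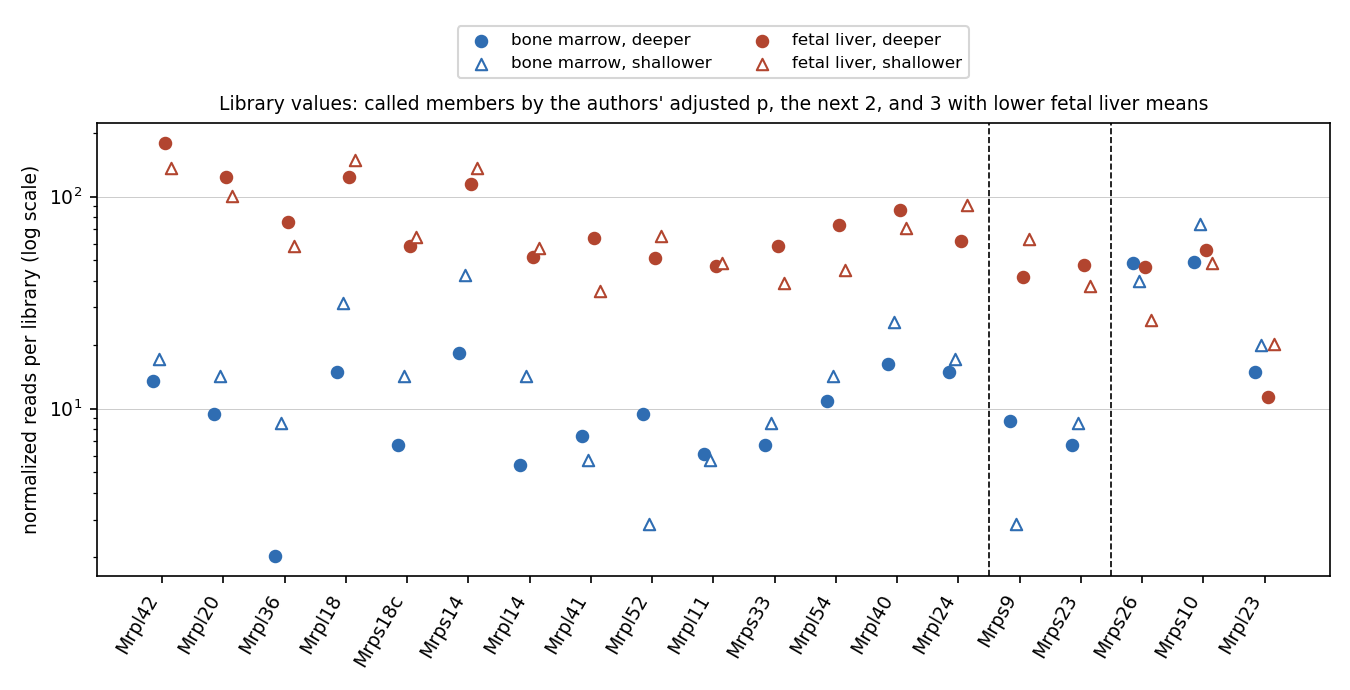
Normalized reads in each of the 4 libraries on a log scale for the 14 called members in the order of the authors' adjusted p, then Mrps9 and Mrps23 just outside the threshold, then the 3 members with a lower fetal liver mean; circles are the deeper and triangles the shallower library of each group. In the called members the red fetal liver points lie above the blue bone marrow points, and the lowest bone marrow value is the 2.03 of Mrpl36.

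The members just outside the threshold were small subunit genes. Mrps9, a counterpart of a bacterial protein that reaches toward the peptidyl site, held 8.78 and 2.86 normalized reads in bone marrow and 41.7 and 63.0 in fetal liver. The groups did not overlap, and the authors' deposited table gives 8.99-fold at adjusted p = 0.0531. Its limma log2 fold change was 3.09 ± 0.63, and the fold was 18.3 without the deeper bone marrow library and 5.96 without the shallower, which had 1 read. With the authors' p-values adjusted only over features whose mean reached 10, Mrps9, Mrps23 and Mrps15 passed. Mrps23, particular to mitochondria, held 6.76 and 8.58 normalized reads in bone marrow and 47.7 and 38.0 in fetal liver, 5.60-fold by the authors' deposited table at adjusted p = 0.0772. Mrps15, a bacterial-type protein of the small subunit, held 18.9 and 8.58 in bone marrow and 81.1 and 55.9 in fetal liver, 4.98-fold by the authors' deposited table at adjusted p = 0.0994, and 7.98-fold without the deeper bone marrow library. In both genes every fetal liver value again exceeded every bone marrow value.

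Of the 48 placed members that were not called, 29 had a fold above 2 and 17 were higher with limma, which called 19.2% of 16502 features higher. The shares of all uncalled features with such a fold or a limma call are not given here. The 29 and the 17 therefore do not show how far these members stood above the background. Mrpl27 and Mrpl39, both of the large subunit, were among the 17, and the shallower bone marrow library had no read of either. Mrpl39 held 12.2 and 0 normalized reads in bone marrow and 54.2 and 39.2 in fetal liver, 7.68-fold by the authors' deposited table at adjusted p = 0.938, against an adjusted p of 0.0121 with limma and Benjamini-Hochberg adjustment. Mrpl27 held 6.76 and 0 in bone marrow and 28.4 and 36.9 in fetal liver, 9.66-fold by the authors' deposited table at adjusted p = 0.234. Without the shallower bone marrow library the folds were 3.84 and 4.83.

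A few members showed little difference. Mrps10, whose bacterial counterpart sits in the head of the small subunit, held 49.3 and 74.3 normalized reads in bone marrow and 55.7 and 48.8 in fetal liver, with overlapping groups and a fold of 0.845 in the authors' deposited table. Mrps26, particular to mitochondria, held 48.6 and 40.03 in bone marrow and 46.6 and 26.2 in fetal liver, a fold of 0.821 in the authors' deposited table. Mrpl23, of the peptide exit tunnel, held 14.9 and 20.02 in bone marrow and 11.4 and 20.2 in fetal liver, a fold of 0.905 in the authors' deposited table. For all 3 the authors' deposited table lists adjusted p = 1, and leaving out 1 library brought each above 1: Mrps26 to 1.05 without the shallower fetal liver library, and Mrps10 to 1.06 and Mrpl23 to 1.06 without the shallower bone marrow library.

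Mrps5, which lines the entry of the message and affects decoding accuracy in bacteria, held 41.9 and 25.7 normalized reads in bone marrow and 37.9 and 65.4 in fetal liver, with overlapping groups and 1.53-fold by the authors' deposited table at adjusted p = 1. Mrps36, now known as a subunit of a citric acid cycle dehydrogenase rather than a ribosomal protein, stood at 1.16-fold in the authors' deposited table, with 1.92-fold when the shallower bone marrow library was left out and 0.771-fold when the shallower fetal liver library was. Mrps12, the decoding protein of the small subunit, had 2 candidate features, with folds of 4.64 and 3.24 in the authors' deposited table, neither of which was called.

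Members were also split by symbol number, into a lower range up to Mrpl36 and Mrps21 and a higher range above these. Called members were spread over both ranges. Counting members not tied to 1 feature as well, 13 of 44 members of the lower range (29.5%) and 6 of 32 of the higher (18.8%) were called higher. The median log2 ratios of the placed ones were 1.65 and 1.54. In the large subunit the counts were 8 of 28 and 5 of 19. In the small subunit they were 5 of 16, with Mrps2 open, and 1 of 13, the 1 being Mrps33. The ranges are only a rough guide to which proteins have a bacterial counterpart, and the higher one includes Mrps36. No difference between them was tested.

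Levels were compared between members only per kilobase of the transcript with the longest coding sequence, which 61 of the 62 placed members have. Mrpl33, of the large subunit, has no length here and is left out of this order, although its bone marrow mean of 86.2 normalized reads was the highest of the placed members before correction for length. On this scale the fetal liver means ran from 6.35 normalized reads per kilobase for Mrpl1 to 236 for Mrpl42, followed by Mrpl52 with 140, Mrpl20 with 138 and Mrpl18 with 112. In bone marrow the same 4 genes stood at 23.02, 14.7, 14.7 and 19.0 per kilobase, and the highest were Mrps10 with 60.7, Mrpl13 with 35.8 and Mrpl37 with 34.9. In fetal liver Mrps10 stood at 51.3 per kilobase, below 14 of these members. Mrpl13, an early assembly protein of the large subunit in bacteria, was not called at 2.30-fold in the authors' deposited table, with 44.6 and 42.9 normalized reads in bone marrow and 104 and 97.5 in fetal liver. These levels depend on which transcript stands for a gene.

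Ratios were larger among the shorter members. Spearman's rho between mRNA length and log2 ratio was -0.34 across 61 placed members with a known length, and -0.17 across 12084 placed protein-coding genes with a mean of at least 10. Of the 31 members of at most 1332 bases, 11 (35.5%) were called higher, with a median log2 ratio of 1.91. Of the 30 longer ones, 3 (10%) were called, with a median of 1.22. Among other protein-coding genes with a mean of at least 10, 23.3% of 1121 genes up to that length were called, with a median of 1.38, and 6.58% of 10902 longer genes, with a median of 0.09. Without cytosolic ribosomal protein and respiratory chain genes the shorter ones had 198 of 1040 called (19.0%) and a median of 1.24. The genes share libraries, and exonic length was among the properties used to place the labels, so this is a description.

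**Figure D3:**
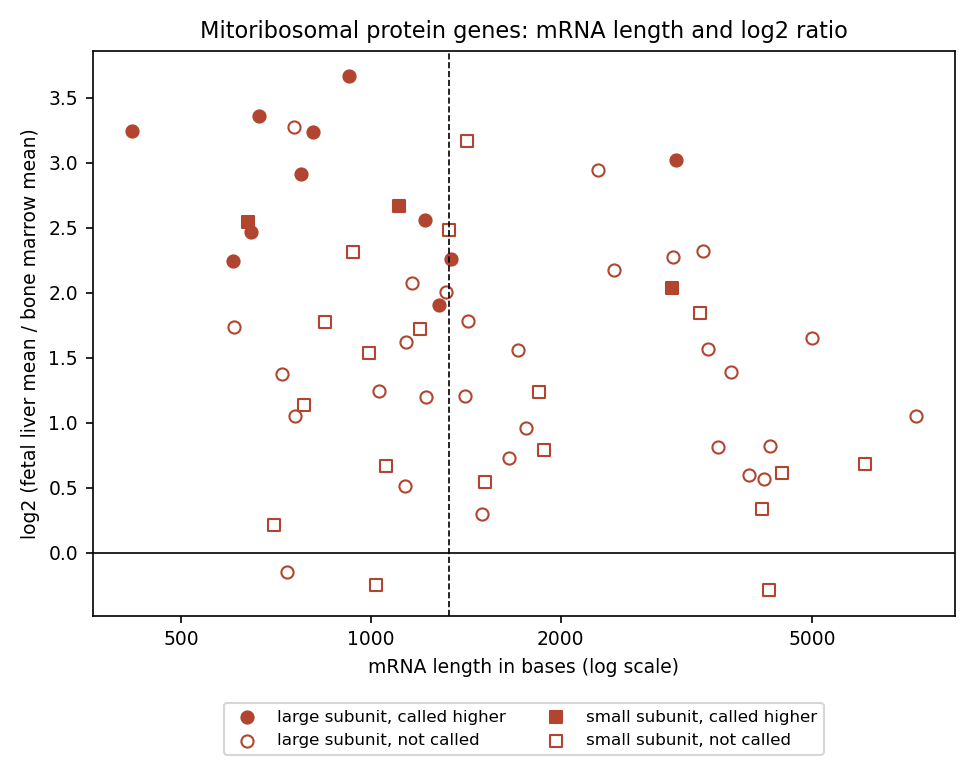
Log2 ratio of the fetal liver to the bone marrow mean against mRNA length on a log scale for 61 placed members, circles for the large and squares for the small subunit, filled where called higher; the dashed line is the median length of 1332 bases. Of the called members 11 lie at or left of the line, and Mrpl11, Mrps14 and Mrpl24 lie right of it.

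Mitochondrial ribosomal proteins whose symbols do not begin with Mrp stood close to the members. Gadd45gip1, a large subunit protein, held 10.1 and 20.02 normalized reads in bone marrow and 66.7 and 59.5 in fetal liver, and rose 4.18-fold by the authors' deposited table at adjusted p = 0.0393. The other 5 labelled ones, among them Dap3 (2.51-fold) and Aurkaip1 (2.50-fold) of the small subunit in the authors' deposited table, were not called. The Aurkaip1 fold was 3.90 without the shallower bone marrow library. The median log2 ratio of the 5 placed ones was 1.48.

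Other genes of mitochondrial gene expression were counted against the same shares, 4.12% of all tested features and 8.86% of those with a mean of at least 10. At an unadjusted p under 0.05 the share of all tested features higher was 8.69%, and with limma it was 19.2% of 16502 features. At these list sizes 0 or 1 call is near the background. Of 15 translation factors none was called, and the median log2 ratio of the 12 placed ones was 0.49. Among them Slirp, which stabilises mitochondrial messages together with Lrpprc, came nearest, with 18.9 and 20.02 normalized reads in bone marrow, 89.4 and 74.9 in fetal liver, and 4.22-fold by the authors' deposited table at adjusted p = 0.0504. The elongation factor gene Tufm stood at 1.33-fold and Guf1, a GTPase of mitochondrial ribosomes, at 2.29-fold in the authors' deposited table. At an unadjusted p under 0.05, 3 of the 15 were higher, and limma called 3 (Slirp, Gfm1 and Oxa1l).

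Of 17 assembly factors none was called, with a median log2 ratio of 0.37 over 13 placed ones, and 0 of 17 passed at an unadjusted p under 0.05 (limma called 1, Malsu1). Malsu1, which keeps the subunits apart during assembly, stood at 3.07-fold and Fastkd2 at 1.92-fold in the authors' deposited table. The Malsu1 fold was 5.42 when the shallower bone marrow library was dropped and 1.85 without the shallower fetal liver library. Of 11 genes of mitochondrial transcription and genome maintenance none was called, 0 at an unadjusted p under 0.05 and 0 by limma, with a median of 0.09. Tfam, the packaging and transcription factor of the mitochondrial genome, stood at 2.43-fold and Tefm, an elongation factor of that transcription, at 2.71-fold, by the authors' deposited table at adjusted p = 0.803 and 0.926. Of 19 mitochondrial aminoacyl-tRNA synthetase and amidotransferase genes, Lars2 was called, although it was not tied to 1 feature, and the median over 12 placed ones was 0.07. Rars2 (2.65-fold) and Fars2 (4.63-fold) in the authors' deposited table were not called by adjusted p. Together with Lars2 they were the 3 of 19 that were higher at an unadjusted p under 0.05, and the same 3 were called higher by limma.

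Yy1 and Gabpa, regulators whose motifs were searched, were not called by the authors' adjusted p and were called higher by limma. Yy1 held 27.7 and 31.5 normalized reads in bone marrow and 98.9 and 65.4 in fetal liver, 2.78-fold by the authors' deposited table at adjusted p = 0.203. Gabpa held 33.8 and 31.5 in bone marrow and 104 and 80.9 in fetal liver, 2.84-fold by the authors' deposited table at adjusted p = 0.234, and Nrf1 stood at 1.27-fold. Of 11 regulators 0 were called, with a median log2 ratio of 0.30 over the 9 placed ones. At an unadjusted p under 0.05, 2 (Yy1 and Gabpa) passed, against 8.69% of all tested features higher. Limma called 3 (these and Gabpb1), against 19.2% of 16502 features higher. These counts are small, and no difference from the shares was tested.

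Products of the mitochondrial genome, translated by these ribosomes or, for mt-Rnr1 and mt-Rnr2, part of them, had 8 of 15 genes called higher and none lower. mt-Nd1 held 193 and 595 normalized reads in bone marrow and 4238 and 4544 in fetal liver, and its mean rose 11.2-fold by the authors' deposited table at adjusted p = 0.00476. mt-Nd5 held 353 and 620 in bone marrow and 3952 and 3970 in fetal liver, and rose 8.14-fold by the authors' deposited table at adjusted p = 4.28e-08. The mt-Nd1 fold became 7.38 on leaving out the deeper bone marrow library and 22.8 on leaving out the shallower. Only 7 of the 12 placed genes had a mean of at least 10, the least that limma tested. Limma called 4 of the 15 higher, against 19.2% of 16502 features, and neither mt-Nd1 nor mt-Nd5. Genes it did not test count as not called here. In the authors' deposited table mt-Cytb (5.88-fold, adjusted p = 0.0876) and mt-Nd3 (2.69-fold) were not called. Without the deeper bone marrow library the folds of mt-Cytb and mt-Nd3 were 3.77 and 1.66, and without the shallower they were 13.3 and 7.03. The called ribosomal RNA genes mt-Rnr1 and mt-Rnr2 and mt-Nd6 were not tied to 1 feature. Being mitochondrially encoded was among the properties used to place labels, so the counts and ratios of these genes are not independent of it.

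Cytosolic ribosomes and the respiratory chain were counted in the same libraries. Of 80 cytosolic ribosomal protein genes 63 were called higher (78.8%), with a median log2 ratio of 3.25 over 60 placed ones, and of 74 nuclear-encoded respiratory chain and ATP synthase genes 57 (77.0%), with a median of 2.86 over 54. The families share the libraries and the control group with the members, and the differences between the lists were not tested.

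**Figure D4:**
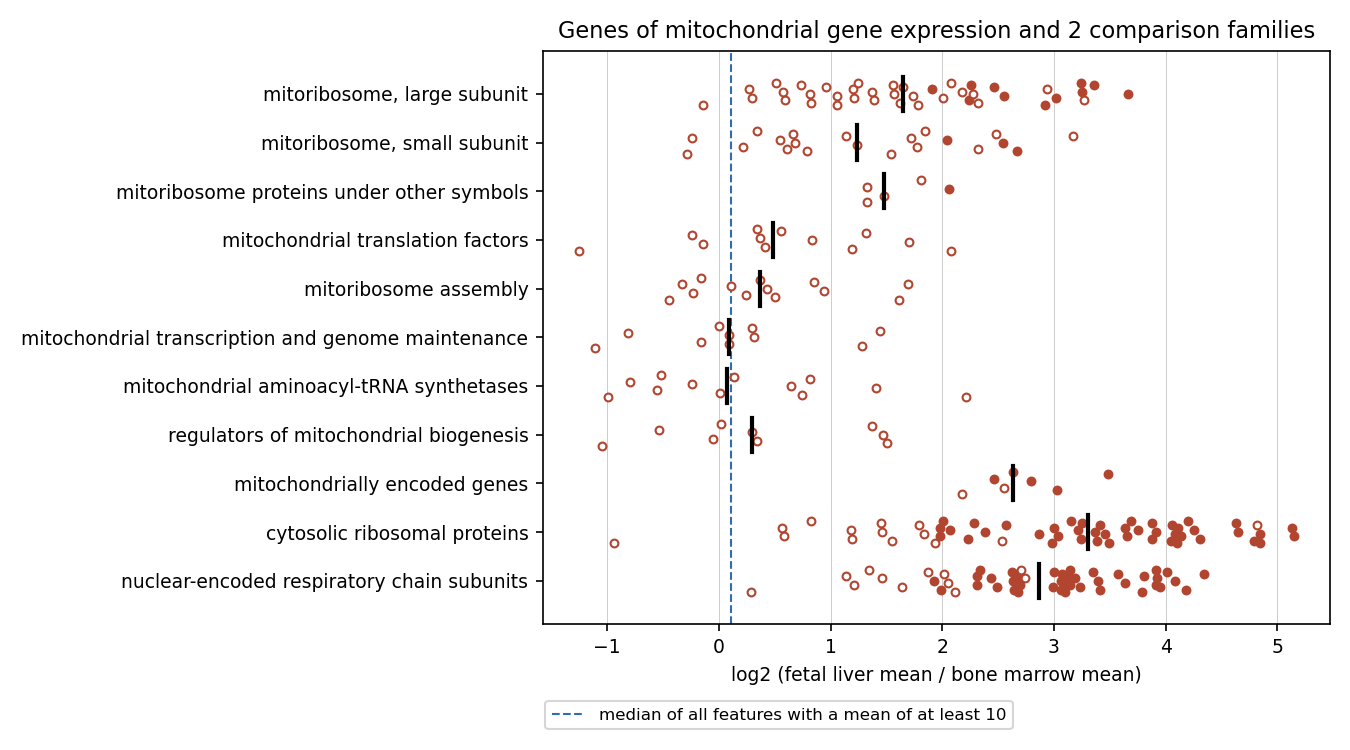
Log2 ratio of the fetal liver to the bone marrow mean for placed genes with a mean of at least 10 in each list; filled points were called higher by the authors' adjusted p, black bars are list medians, and the dashed line is the median of 0.11 over all features at or above that mean. The medians of both subunits, 1.65 and 1.23, lie between those of the translation factors (0.49) and the respiratory chain subunits (2.86).

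Markers of other cells moved between the same groups. Of all tested features 4.12% were called higher and 0.129% lower. Of 5 hepatoblast markers 2 were called higher, Alb (21.3-fold) and Afp (25.8-fold) in the authors' deposited table. The Afp fold was 95.3 or 14.9 when the deeper or the shallower bone marrow library was dropped. The 4 placed hepatoblast markers summed to 87.8 and 31.5 normalized reads for bone marrow and 568 and 604 for fetal liver. Of these 4, 1 had the lower mean in fetal liver, at a log2 ratio of -0.44. Of 6 pericyte markers 3 were called higher (Rgs5, Abcc9 and Pdgfrb), with sums over 5 placed ones of 103 and 120 in bone marrow and 1165 and 2380 in fetal liver. All 4 proliferation markers (Mki67, Top2a, Ccnb1 and Cdk1) were called higher, with sums over 3 placed ones of 183 and 169 in bone marrow and 920 and 1162 in fetal liver. Of 6 leukocyte markers 1, S100a9, was called lower, with sums of 368 and 94.4 in bone marrow and 39.8 and 53.5 in fetal liver. None of 4 erythroid and 5 endothelial markers was called. At an unadjusted p under 0.05, 0 of the erythroid and 1 of the endothelial ones passed, against 8.69% of all tested features higher. Limma called 0 and 1, against 19.2% of 16502 features higher. Only 3 of the 4 erythroid ones had the mean of at least 10 that limma needed. The erythroid markers summed to 32.4 and 2.86 normalized reads in bone marrow and 55.3 and 73.7 in fetal liver, and the 3 placed endothelial ones to 97.3 and 62.9 against 87.5 and 76.1. Hba-a1, Klf1 and Alas2 of the erythroid markers and Kcnj8 of the pericyte markers were at 0 in the shallower bone marrow library, and S100a8 in the shallower fetal liver library. The part of these cells and of cell division in the members' values was not tested.

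Exons of 25 of 75 members in the annotation share at least 100 bases with another gene, among them the called members Mrpl14, Mrpl18, Mrpl24 and Mrps18c. The deposited table also names 4 pseudogenes of members, of Mrpl23, Mrpl48 and Mrps36. Whether the reads were counted by strand, and how reads of shared or copied sequence were counted, is not stated in the sources, so the values of these genes are uncertain to that extent.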

How the data were processed

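The data are 1 deposited comparison of 2 fetal liver with 2 bone marrow libraries. GSNAP, HTSeq, DESeq and the build mm9 are named, without versions, in the submitters' processing notes; annotation and filters remain unstated there. Per the file headers, the authors' values are a normalized read signal averaged per group, a ratio (fold) of fetal liver to bone marrow, and a p-value with its adjusted p-value. A call is an authors' adjusted p under 0.05 over all 35605 tested features of 37996.

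The 33465 gene labels were closed up over unlabelled features: only 69.4% of 9026 adjacent labels with equal values stood in identifier order. A hidden Markov model placed them again from label order, identifier order within equal values (error rate 0.001) and a LightGBM score (version 4.6.0, 5 held-out folds). The score compared gene properties with level and direction. These were gene structure from GENCODE M21, RefSeq transcript counts, CpG and GC content of the RefSeq promoter windows, and the label's rank and identifier. Broad symbol classes, such as receptor families, pseudogenes and mitochondrially encoded genes, were also used, but no class for Mrpl or Mrps symbols. Of 32237 labels 80.6% reached the posterior of 0.95 required to count as placed, after which 99.9% of 7113 such pairs were in order. Members had moved by 6 to 2953 features. Values quoted from the authors' deposited table come from the feature at which a label was placed.

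Reads of single libraries were recovered as the 1 whole-read solution of each mean up to 10000 (34525 bone marrow and 31921 fetal liver means, each with 1 solution). Limma 3.58.1 (R 4.3.3), allowing the variance to follow the mean, tested log2(normalized reads + 1) for 16502 of the 16526 features whose mean reached 10, those with recovered reads, and p-values were adjusted by Benjamini-Hochberg. Its fold changes are differences of mean log values on that scale. They can lie below or above the log2 ratio of the group means (above it for Mrpl27 and Mrpl39, with a library at 0). Both steps were tested on simulated data.

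The named genes were the called members with the 8 largest and 3 smallest folds, the 4 uncalled ones with the lowest p, those with a lower mean in fetal liver, the 4 highest per kilobase, 2 on each side of the threshold, 6 with central roles, and for each other list the 2 largest called folds and the 2 lowest uncalled p. Mrpl10, Mrpl13, Mrpl14, Mrpl22, Mrpl27, Mrpl33, Mrpl37, Mrpl39, Mrps18c, Mrps36, Tufm, Gfm1, Oxa1l, Gabpb1, Lars2 and Nrf1 were added after their values were seen. The members and lists were chosen with earlier results of these data known. Alternatives changed the placement, the test, the filter, the pseudocount and the libraries.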

Additional observations from a re-analysis of the deposited data

How the results depend on the processing

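No paired analysis was possible because the groups share only replicate number 2 and the deposited values are group means. The 19 members called higher, counted over all 76, were also 19 at a placement posterior of 0.99, with every label put on its likeliest feature, and with p-values adjusted again. They were 21 with labels left where deposited and 23 with adjustment over features whose mean reached 10. Limma called 40, 40 with a pseudocount of 0.5 and 34 with no minimum mean, and leaving out each library in turn it called 26 (without the deeper fetal liver library) to 43. None was called lower, except 1 (Mrps2) with every label on its likeliest feature. The share of all features called is not given for the changed adjustment, filter or pseudocount, or with 1 library left out. Counts under those settings therefore do not show how far the members stood above the background there. The median log2 ratio of 1.60 was 0.66 with labels left where deposited, 1.10 with group means + 10, and 1.37 to 1.87 with 1 library left out. Medians of other lists turned below 0 with labels left where deposited: -0.99 for translation factors, -0.016 for assembly, -0.71 for synthetases and -1.345 for regulators. Relative to the median of features whose mean reached 10, transcription and maintenance genes stood at -0.022 and synthetases at -0.040. With 1 library left out the former ran from -0.067 (without the deeper bone marrow library) to 0.26. The synthetases ran from -0.068 (without the shallower fetal liver library) to 0.20, with -0.023 without the deeper one. The cause was not tested. The median placed member had 6 reads in the shallower bone marrow library, and the part of depth in the number of calls was not tested.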
